A study of Saccharomyces cerevisiae with 36 samples.

Results

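The daughter cell separation genes of the budding yeast Saccharomyces cerevisiae described here are DSE1, DSE2, DSE3, DSE4, SCW11, EGT2, CTS1, AMN1 and SFG1. They were found by their common names in the deposited count tables and made up 9 of the 7122 gene lines used. Their RNA was measured in 36 libraries from chemostats, vessels in which a steady feed sets the growth rate and a scarce nutrient limits the culture. The libraries formed 12 groups of 3 biological replicates, from 3 culture sets with 4 nutrient limitations each. The DASGIP tagged set, from a DASGIP vessel of 1 L, consisted of HAP1-TAP, which is the strain CEN.PK 113-5D with a CBP-ProtA tag on the C-terminus of Hap1p, a heme-responsive transcription factor. The MC tagged set was HAP1-TAP in vessels called MC, taken here as the mini-chemostats of the series title, and the untagged set in MC vessels was CEN.PK 113-5D without the tag. All groups therefore shared the CEN.PK 113-5D background, and no untagged culture in the DASGIP vessel was analysed here. Nitrogen was limiting in N-lim, in a medium of 6% glucose. Ethanol was limiting in Et-lim, where it was fed at 0.5%, and glucose in Glu-lim, at 0.75%. In OxGlu-lim both oxygen and glucose were limiting, at 1% glucose. Cultures were sampled after 48 to 60 h at steady state.

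When a budding yeast cell divides, mother and daughter stay joined by a septum of chitin and glucan, which the daughter digests from its own side. The genes for this are expressed at the end of mitosis and in early G1, and the kinase Cbk1 and the other proteins of the RAM network are needed for it. The transcription factor Swi5 enters the nucleus at that stage and binds the core sequence CCAGC. Cells that lack the septum-degrading enzymes remain attached to each other in clumps.

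CTS1 encodes the chitinase that cuts the septum, DSE4 (also called ENG1) an endo-1,3-beta-glucanase, and SCW11 a wall protein related to glucanases. DSE2 and EGT2 encode secreted wall proteins of the daughter side. DSE1 and DSE3 are further genes expressed in daughters. AMN1 encodes an antagonist of the mitotic exit network that acts in daughters, and SFG1 a putative transcription factor of pseudohyphal growth.

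The core CCAGC was searched on both strands, where it reads CCAGC or GCTGG, because these genes move together and Swi5 is known to bind it. In the window from 250 bases before to 50 after the start codon, 3 of 9 members held it (DSE1, DSE4 and EGT2), beside 22.7% of 6001 genes. In the 600 bases before the start codon, a window chosen after these results were seen, 8 of 9 members held it, beside 43.2% of 5999 genes, and 7 held it at least 2 times, beside 12.4%. SFG1 held none in either window. The longer word ACCAGC, which contains the core, was in 1 member (EGT2) in the window around the start codon, beside 8.12% of genes, and in 7 in the 600 bases, beside 16.4%. The stretches below run from 10 bases before the first to 10 bases after the last match within 300 bases, for the members with 3 or more matches, and for AMN1, a regulator with 1. They come from RefSeq's R64 sequence, written 5′ to 3′ on the coding strand with the core in capitals, and CEN.PK may differ from it.
CTS1 (chrXII:710647-710712, minus strand): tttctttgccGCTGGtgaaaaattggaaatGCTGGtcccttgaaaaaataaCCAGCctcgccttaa
DSE4 (chrXIV:759278-759508, minus strand): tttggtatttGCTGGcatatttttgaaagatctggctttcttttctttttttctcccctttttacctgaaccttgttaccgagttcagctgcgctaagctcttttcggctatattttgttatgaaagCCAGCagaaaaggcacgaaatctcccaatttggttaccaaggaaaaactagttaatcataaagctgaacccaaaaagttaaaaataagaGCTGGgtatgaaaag
EGT2 (chrXIV:23653-23865, plus strand): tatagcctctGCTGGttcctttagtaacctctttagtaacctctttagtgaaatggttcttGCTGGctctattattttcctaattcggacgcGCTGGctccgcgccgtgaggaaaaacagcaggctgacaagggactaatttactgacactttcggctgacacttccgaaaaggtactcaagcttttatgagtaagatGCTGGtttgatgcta
DSE1 (chrV:409247-409519, minus strand): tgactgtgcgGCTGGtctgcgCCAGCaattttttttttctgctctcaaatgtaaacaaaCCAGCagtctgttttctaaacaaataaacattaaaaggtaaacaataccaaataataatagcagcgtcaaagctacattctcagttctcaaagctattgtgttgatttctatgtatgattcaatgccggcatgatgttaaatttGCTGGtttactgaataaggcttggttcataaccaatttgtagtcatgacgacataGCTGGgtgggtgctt
DSE3 (chrXV:818442-818618, plus strand): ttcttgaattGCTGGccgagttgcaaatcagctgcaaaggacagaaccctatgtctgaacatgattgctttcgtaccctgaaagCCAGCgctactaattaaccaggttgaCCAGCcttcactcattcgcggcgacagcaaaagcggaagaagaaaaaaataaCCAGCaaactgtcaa
AMN1 (chrII:556072-556096, plus strand): tcttattcctGCTGGtgttttttgt
CTS1 held 3 matches within 66 bases, farther from the start codon than the 300-base window reaches, and DSE1 held 5 within 273 bases. None of the stretches reaches the next RefSeq gene upstream. A match is a description of letters and not a measured binding site.

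Library totals, in units of 1e+06 counts, were 10.7 to 22.5 with a median of 16.7. Genes of the mitochondrial genome held 9.19% to 46.6% of the counts. The members together took 0.0650% to 0.345%. Their counts ran from 341 for DSE3 to 19412 for CTS1, which puts the counting error of a single value between 5.42% and 0.718%. Levels are given as CPM, the counts of a gene per 1e+06 counts of the library, on library sizes scaled by TMM factors. Values per replicate are in the order of the replicate numbers, which carry no rank. Transcripts of 7 genes specific to MATa cells summed to 247 to 3735 CPM per library. Those of 4 genes specific to MATalpha cells summed to 31.4 to 181 CPM, and those of 10 meiosis genes to 61.3 to 119.9 CPM. These sums used library totals without TMM factors.

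Per kilobase of coding length, CTS1 was the most abundant member, with a mean over the 12 groups of 244 CPM per kb. DSE2 followed at 123, DSE1 at 88.2, EGT2 at 70.8, SCW11 at 63.7, AMN1 at 62.1, SFG1 at 60.8 and DSE4 at 49.5 CPM per kb, and DSE3 was lowest at 32.3. The group with the highest mean was always a DASGIP tagged group. It was N-lim for DSE1, DSE2, SCW11 and CTS1, OxGlu-lim for DSE3, EGT2 and SFG1, and Et-lim for DSE4 and AMN1. The lowest was always an MC tagged group, Glu-lim for DSE1, DSE3, SCW11, EGT2, CTS1 and SFG1, N-lim for DSE4 and AMN1, and Et-lim for DSE2. The ratio of highest to lowest group mean ranged from 2.02 for DSE3 to 6.12 for DSE2. Among the 11 pairs of neighbouring groups in each gene's order, 7 (DSE1, CTS1, SFG1) to 10 (DSE3) overlapped in their library values, so much of each order is not resolved by the replicates.

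**Figure D1:**
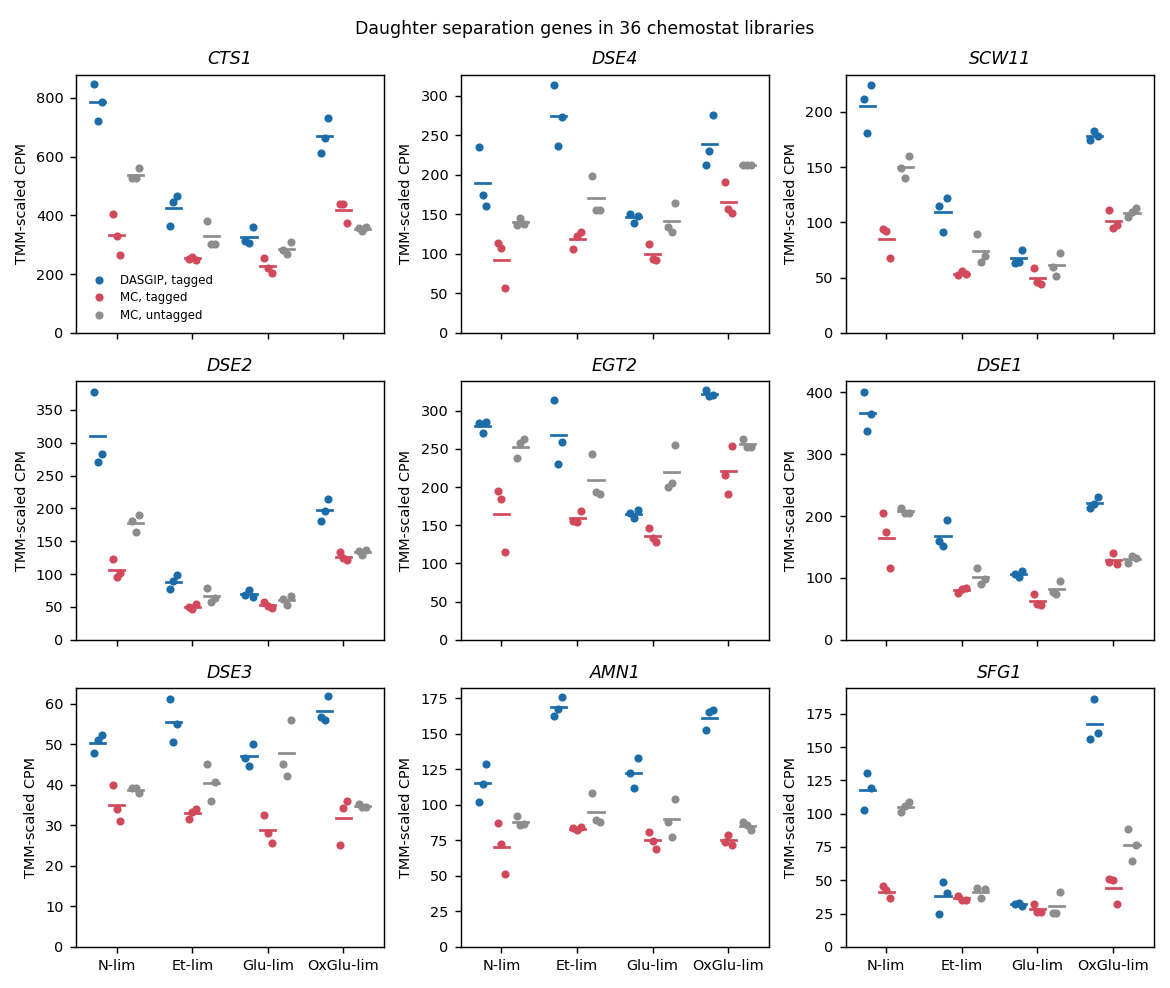
TMM-scaled CPM (vertical axis, from 0) of each member in the 36 libraries, by limitation (horizontal axis) and culture set (colour). Each point is a library and each short line the mean of 3. In every panel the highest group is a DASGIP tagged group, and the 3 sets lie close together for SFG1 under Et-lim and Glu-lim.

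The comparison of vessels took MC tagged minus DASGIP tagged libraries, which carry the same strain. Relative to the DASGIP vessel, the members were lower in MC cultures in each limitation, with a median log2 fold change of -1.15 under N-lim, -0.81 under Et-lim, -0.53 under Glu-lim and -0.77 under OxGlu-lim, where the median of all genes was between -0.01 and 0.01. The number that fell at an adjusted p under 0.05 was 9 of 9 under N-lim (7.67% of all 6612 genes fell there), 8 under Et-lim (6.09%), 7 under Glu-lim (11.9%) and 9 under OxGlu-lim (8.95%). No member rose. In the mean over the 4 limitations all 9 fell (17.4% of all genes fell). Ordered from the lowest log2 fold change upward, they held places between 20 (DSE1) and 67 (EGT2) among the 6612 genes. In bulk RNA, fewer cells in the stage that expresses these genes and less RNA per cell cannot be told apart. Vessel and any batch that ran with a set also cannot be told apart, since the labels give no batch.

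**Figure D2:**
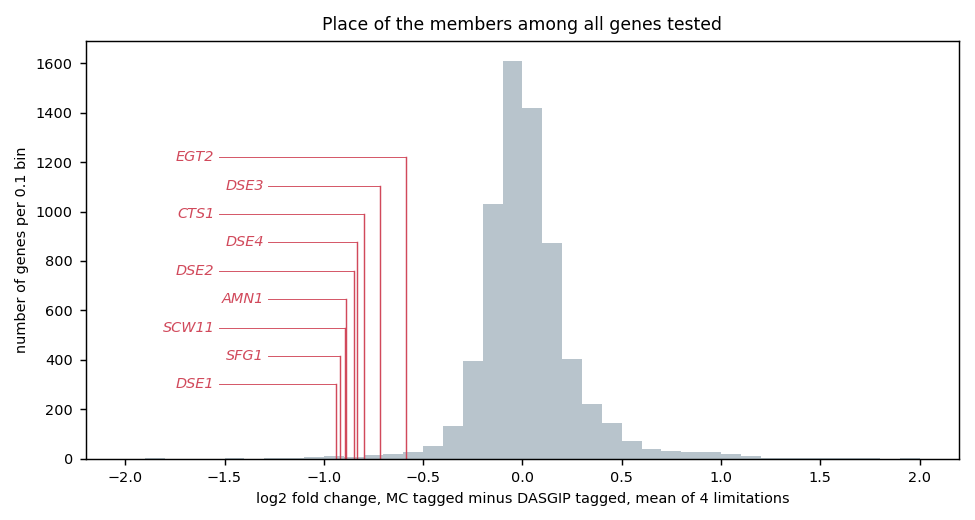
Number of genes (vertical axis) per 0.1 bin of the mean log2 fold change between MC tagged and DASGIP tagged libraries (horizontal axis), over 6612 genes, with a red line at each member's value. The members lie between -0.94 (DSE1) and -0.59 (EGT2), in the lower tail.

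The chitinase gene CTS1 (YLR286C, chrXII:708448-710136, minus strand) read 847, 721 and 785 CPM in the 3 DASGIP tagged libraries under N-lim, 404, 331 and 265 CPM in MC tagged, and 528, 529 and 559.9 CPM in MC untagged. The 3 groups did not overlap, with MC tagged lowest. The vessel difference in log2 was -1.23 ± 0.12 (SE, adjusted p = 2.03e-08). Under OxGlu-lim CTS1 read 613, 663 and 731 CPM in DASGIP tagged, 439, 439.5 and 375 CPM in MC tagged, and 357, 347.5 and 359.6 CPM in MC untagged. There the untagged MC libraries were the lowest, in contrast to N-lim. Under Et-lim and Glu-lim the vessel differences were -0.75 ± 0.12 and -0.53 ± 0.12 (adjusted p = 7.49e-05 and 0.00214). The size differed between limitations (edgeR F test across the 4, adjusted p = 0.0111), as it did for 24.2% of all genes.

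The glucanase gene DSE4 (YNR067C, chrXIV:755746-759099, minus strand) read 314, 237 and 273 CPM in DASGIP tagged under Et-lim, and 106, 123 and 128 CPM in MC tagged. Every DASGIP tagged library lay above every MC tagged one, and the difference was -1.21 ± 0.17 (adjusted p = 2.25e-05). Under N-lim its MC tagged libraries spread widely, at 114, 108 and 56.6 CPM, against 235, 175 and 161 CPM in DASGIP tagged. Under OxGlu-lim the difference was smaller, at -0.53 ± 0.17 (adjusted p = 0.0309). Without DASGIP replicate 2 or 3 or MC replicate 2 or 3 that call was lost, with an adjusted p of 0.0597, 0.159, 0.0970 and 0.128. Under Glu-lim it was -0.56 ± 0.17 (adjusted p = 0.0213), and the adjusted p lay between 0.0617 and 0.0822 without DASGIP replicate 1 or 3 or MC replicate 2 or 3. The F test across limitations gave an adjusted p of 0.0643, which fell to between 0.0160 and 0.0481 without DASGIP tagged N-lim replicate 3, Et-lim replicate 2 or OxGlu-lim replicate 3 or any MC tagged N-lim replicate.

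SCW11 (YGL028C, chrVII:441281-442909, minus strand) gave 212, 181 and 225 CPM in DASGIP tagged under N-lim, 93.9, 91.9 and 68.0 CPM in MC tagged, and 149, 139.8 and 160.5 CPM in MC untagged. The 3 sets were fully separated. The vessel difference was -1.28 ± 0.13 under N-lim, -1.02 ± 0.14 under Et-lim and -0.82 ± 0.13 under OxGlu-lim (adjusted p = 1.01e-07, 6.01e-06 and 8.51e-05). Under Glu-lim its DASGIP tagged libraries at 62.8, 64.5 and 75.3 CPM were little above the MC tagged ones at 58.5, 46.2 and 44.3 CPM. That difference of -0.44 ± 0.13 (adjusted p = 0.0187) lost its call without DASGIP replicate 3 (0.109) or MC replicate 2 (0.0821) or 3 (0.0964). The vessel difference of SCW11 varied with the limitation (F test, adjusted p = 0.00933).

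The wall protein gene DSE2 (YHR143W, chrVIII:385510-386487, plus strand) had the steepest vessel difference of the members under N-lim. It read 377, 271 and 282 CPM in DASGIP tagged, 123, 95.8 and 101 CPM in MC tagged, and 180.5, 165 and 189.6 CPM in MC untagged. The log2 difference was -1.54 ± 0.12 (adjusted p = 3.97e-10). Under Glu-lim it was -0.40 ± 0.12 (adjusted p = 0.0193), from 68.9, 75.4 and 65.3 CPM to 58.1, 52.1 and 48.9 CPM, and the adjusted p was 0.0784, 0.0615 and 0.0882 without DASGIP replicate 2 and MC replicates 2 and 3. The size differed between limitations (F test, adjusted p = 1.06e-04).

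EGT2 (YNL327W, chrXIV:24048-27173, plus strand), needed for timely cell separation, was the member with the smallest mean vessel difference. Under OxGlu-lim its DASGIP tagged libraries were tightly grouped at 328, 319 and 319.96 CPM, with 216, 191 and 254 CPM in MC tagged. Under Glu-lim it stood at 167, 159 and 169.6 CPM in DASGIP tagged, at 146, 133 and 128 CPM in MC tagged, and at 200.2, 206 and 255 CPM in MC untagged. The untagged MC libraries were thus the highest there. The vessel difference under Glu-lim was -0.28 ± 0.13 and not called (adjusted p = 0.133), although the groups did not overlap (24.1% of all genes were lower without overlap there). It was called in a fit of only the libraries compared (adjusted p = 0.0180) and with library totals and no scaling factor (-0.44, adjusted p = 0.0163).

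DSE1 (YER124C, chrV:407342-409063, minus strand) read 400.3, 337 and 364 CPM in DASGIP tagged under N-lim, and 205, 174 and 117 CPM in MC tagged. Under Et-lim it read 160.2, 151 and 193 CPM against 74.9, 82.3 and 83.0 CPM. Its vessel difference was -1.15 ± 0.14, -1.07 ± 0.14, -0.76 ± 0.14 and -0.77 ± 0.13 under N-lim, Et-lim, Glu-lim and OxGlu-lim. The F test across limitations gave an adjusted p of 0.200, and 0.0438 without MC tagged N-lim replicate 1.

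DSE3 (YOR264W, chrXV:818866-820158, plus strand) was the member with the smallest share of its variance between limitations. In DASGIP tagged libraries its lowest value in any limitation was 44.7 CPM and its highest 62.0 CPM. In MC tagged libraries it read 25.1 to 39.9 CPM, and in MC untagged 34.6 to 56.1 CPM. In that last set the Glu-lim libraries (42.1 to 56.1 CPM) lay above all those of OxGlu-lim and N-lim (34.6 to 39.3 CPM). Its vessel difference ran from -0.53 ± 0.12 under N-lim to -0.87 ± 0.12 under OxGlu-lim, and the F test across limitations gave an adjusted p of 0.350.

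AMN1 (YBR158W, chrII:556549-558198, plus strand) read 163, 167 and 176 CPM in DASGIP tagged under Et-lim, 83.4, 82.1 and 84.1 CPM in MC tagged, and 108, 89.2 and 87.6 CPM in MC untagged. Both MC groups lay far below the DASGIP group. Under OxGlu-lim the values were 153, 165 and 167 CPM in DASGIP tagged, 74.1, 79.1 and 71.8 CPM in MC tagged, and 87.6, 85.7 and 82.3 CPM in MC untagged. The vessel difference was -1.02 ± 0.12 and -1.11 ± 0.12 in these limitations (adjusted p = 1.59e-06 and 3.42e-07). The F test across limitations gave an adjusted p of 0.142, and 0.00795 without MC tagged N-lim replicate 3.

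SFG1 (YOR315W, chrXV:904760-905800, plus strand) had the smallest p of the members in the test of whether the vessel difference varied with the limitation. Under OxGlu-lim it read 156, 186 and 161 CPM in DASGIP tagged, 51.0, 50.1 and 32.5 CPM in MC tagged, and 88.8, 64.6 and 76.4 CPM in MC untagged. The groups were fully separated, and the difference of -1.91 ± 0.19 was the largest of any member in any limitation (adjusted p = 4.73e-08). Under N-lim it was -1.51 ± 0.19 (adjusted p = 1.17e-06). Under Et-lim the 3 DASGIP tagged libraries read 25.0, 48.6 and 40.4 CPM, around the MC tagged ones at 37.8, 35.5 and 35.5 CPM, with a difference of -0.07 ± 0.19 (adjusted p = 0.869). Under Glu-lim the difference was -0.18 ± 0.19 (adjusted p = 0.528). The F test of the difference between limitations gave an adjusted p of 7.79e-06.

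Over all 4 limitations, 7 members (DSE1, DSE2, DSE3, DSE4, SCW11, CTS1 and AMN1) fell at an adjusted p under 0.05 in each. They were among 29 such genes, 0.439% of all. The MC tagged values lay below all DASGIP tagged values in every limitation for 8 members, all but SFG1, as for 66 genes or 0.998% of all. The MC tagged library N-lim replicate 3 was low for all 9 members, yet without it 9 of 9 were still called under N-lim. That fit called 1318 genes in either direction, beside 1204 with all libraries. Under Glu-lim the count of members was less firm: without MC tagged replicate 2 or 3 it was 4 of 9. Leaving out 1 library also lowered the genes called there in either direction, from 1383 to between 828 and 1228.

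**Figure D3:**
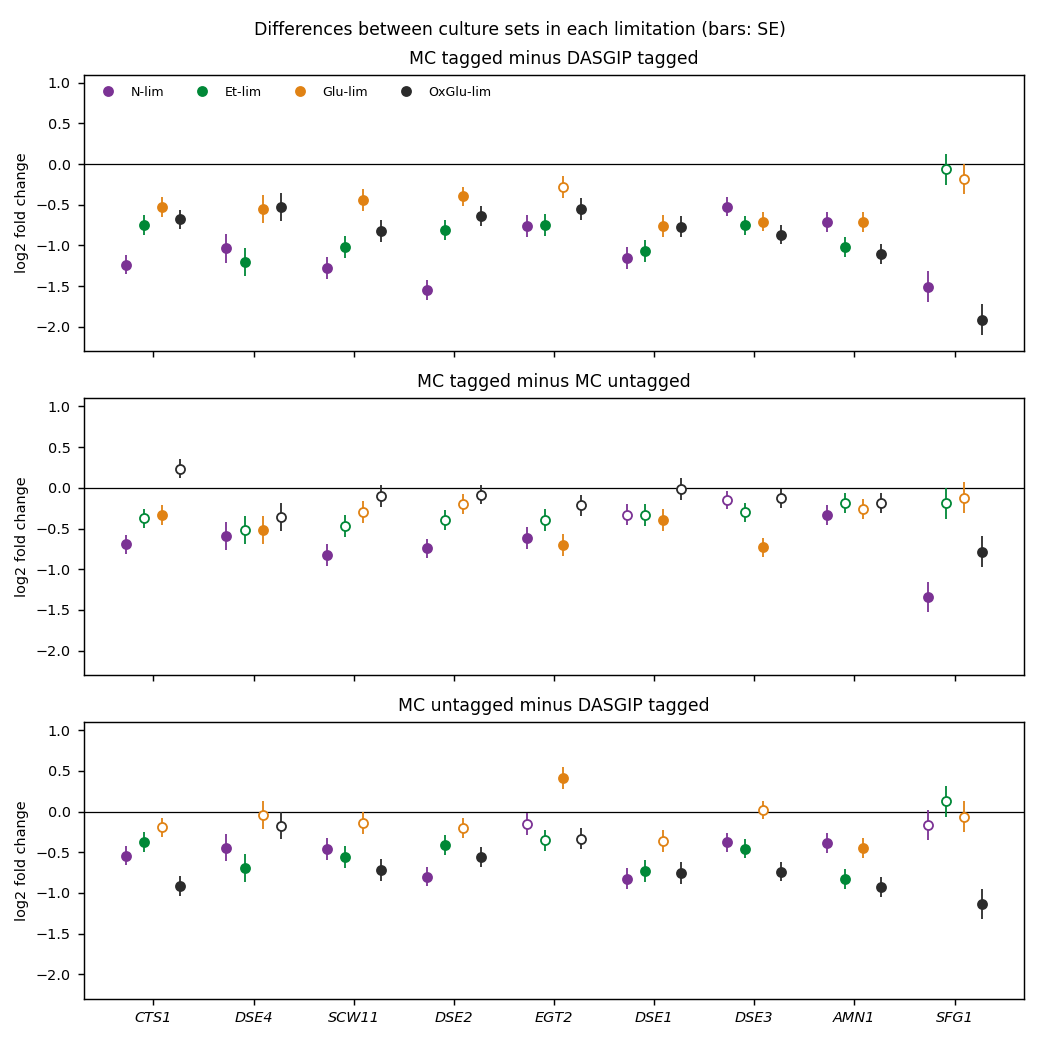
Log2 fold change (vertical axis) of each member (horizontal axis) between culture sets, by limitation (colour), with standard errors as bars. Filled points have an adjusted p under 0.05 and open points do not. In the top panel all 36 values lie below 0, in the middle panel CTS1 under OxGlu-lim lies above 0, and in the bottom panel EGT2 under Glu-lim is the called value above 0.

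The comparison of strains took MC tagged minus MC untagged libraries, and it shares its MC tagged libraries with the comparison of vessels. In the mean over the 4 limitations all 9 members were lower with the tag (9.74% of all genes fell), by -0.24 (AMN1) to -0.61 (SFG1), with a median of -0.35 against -0.01 for all genes. With library totals and no scaling factor, which put the median of all genes at 0.14, 6 of 9 were called lower (2% of all genes). The members called lower were 7 under N-lim (15.2% of all genes), none under Et-lim (0.121%), 5 under Glu-lim (14.3%) and 1 under OxGlu-lim (11.7%). Under N-lim SFG1 had the lowest log2 fold change of the members. It read 45.4, 42.7 and 36.5 CPM in MC tagged against 101, 106 and 109 CPM in MC untagged. The tagged libraries were all lower, with a difference of -1.34 ± 0.19 (adjusted p = 6.12e-06). It was also the member called under OxGlu-lim (-0.78 ± 0.19, adjusted p = 0.00294).

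Under N-lim the other members that fell with the tag were SCW11 (-0.82 ± 0.13), DSE2 (-0.74 ± 0.12), CTS1 (-0.69 ± 0.12), EGT2 (-0.62 ± 0.13), DSE4 (-0.60 ± 0.17) and AMN1 (-0.33 ± 0.12). Without MC tagged N-lim replicate 3, DSE4 (adjusted p = 0.0763) and AMN1 (0.311) were no longer called. AMN1 was also lost without MC tagged replicate 2 (0.0556) or any of the untagged replicates (0.0658 to 0.113). Without MC tagged replicate 1, DSE1 was called (0.00814). In a fit of only the libraries compared, 4 of 9 were called, with DSE4 (adjusted p = 0.119), EGT2 (0.0586) and AMN1 (0.215) lost. Under Et-lim edgeR called none of the 9, while 7 were lower at an unadjusted p under 0.05 (5.87% of all genes), 8 had groups that did not overlap (11.3% of all genes), and DESeq2 also called none. Across all genes edgeR called 21 there and DESeq2 94. Without MC untagged Et-lim replicate 2, SCW11 was called (adjusted p = 0.0476).

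Under Glu-lim DSE3 read 32.5, 28.1 and 25.7 CPM in MC tagged and 45.1, 42.1 and 56.1 CPM in MC untagged, a difference of -0.73 ± 0.12 (adjusted p = 8.00e-05). EGT2 fell by 0.70 ± 0.13 on the log2 scale there. DSE1 (-0.40), DSE4 (-0.52) and CTS1 (-0.34) also passed, but those 3 lost their calls without MC tagged replicate 2 or 3 or MC untagged replicate 1 or 3, which left 2 of 9. CTS1 lost its call without MC untagged replicate 2 as well (adjusted p = 0.0521), and SCW11 gained one without MC tagged replicate 1 (0.0477). Under OxGlu-lim CTS1 was the member with a positive value, at 0.24 ± 0.12 (adjusted p = 0.142), and its tagged libraries all lay above the untagged ones (18.7% of all genes). The strain difference varied with the limitation for DSE2, DSE3, SCW11, CTS1 and SFG1 (F test, adjusted p = 0.0106, 0.0104, 0.0148, 6.52e-04 and 0.00129), as for 47.9% of all genes. Without MC untagged Glu-lim replicate 3 the value of DSE3 was 0.0612, and that of EGT2, otherwise 0.112, was 0.0449 without MC tagged N-lim replicate 3.

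MC untagged minus DASGIP tagged changes vessel and strain together, and it shares libraries with both comparisons above. In the mean over the limitations 8 members fell (19.0% of all genes), by -0.67 for DSE1 to -0.31 for SFG1. EGT2 did not pass, at -0.10 ± 0.07 (adjusted p = 0.218), but with no scaling factor all 9 were called (66.1% of all genes). Under N-lim, Et-lim and OxGlu-lim 7 members fell in each (16.0%, 8.73% and 12.2% of all genes). Under N-lim the call of DSE4 was lost without DASGIP tagged replicate 1 or 2 or any MC untagged replicate (adjusted p from 0.0538 to 0.302). AMN1 lost its call without DASGIP tagged replicate 3 or MC untagged replicate 2 or 3 (0.0532 to 0.103), and SCW11 without DASGIP tagged replicate 3 (0.0504). Under Et-lim CTS1 was lost without DASGIP tagged or MC untagged replicate 2 or 3 (0.0810 to 0.127) and DSE2 without DASGIP tagged replicate 3 or MC untagged replicate 2 or 3 (0.0671 to 0.102). In a fit of only the libraries compared, DSE2 (0.0921), SCW11 (0.0555) and CTS1 (0.112) lost their calls under Et-lim, which left 4 of 9. Under Et-lim EGT2 was called without DASGIP tagged replicate 2 (0.0310) or MC untagged replicate 1 (0.0346). Under Glu-lim AMN1 fell (5.13% of all genes), at -0.45 ± 0.12 (adjusted p = 0.0120), and EGT2 rose (10.1%), at 0.42 ± 0.13 (adjusted p = 0.0336). With library totals and no scaling factor EGT2 was not called (0.08, adjusted p = 0.617), and 6 members were called lower (51.3% of all genes). Without DASGIP tagged Glu-lim replicate 3 neither was called. EGT2 was also lost without DASGIP tagged replicate 1 (adjusted p = 0.0742) or 2 (0.105) or MC untagged replicate 3 (0.189), and AMN1 without MC untagged replicate 2 (0.0935), while DSE1 was called without MC untagged replicate 3 (0.0318).

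Limitations were compared as means over the 3 sets, in which opposite differences of single sets can cancel. Against Glu-lim, 6 members rose under N-lim (34.2% of all genes rose), 7 under Et-lim (30.5%) and 7 under OxGlu-lim (32.9%), and none fell. These 3 comparisons share the Glu-lim libraries. The largest rises under N-lim were those of DSE2 (1.57 ± 0.07), DSE1 (1.50 ± 0.08) and SFG1 (1.41 ± 0.11). SCW11 rose by 1.22 ± 0.08, CTS1 by 0.91 ± 0.07 and EGT2 by 0.41 ± 0.08. DSE3 (0.03), DSE4 (0.09) and AMN1 (-0.07) did not pass, though DSE4 was called without MC tagged N-lim replicate 3 (0.17, adjusted p = 0.0490). All 9 were called higher with library totals and no scaling factor, a setting that put the median of all genes at 0.41 and called 68.6% of all genes higher.

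Under OxGlu-lim against Glu-lim the rises were 1.46 ± 0.11 for SFG1, 1.29 ± 0.07 for DSE2 and 1.09 ± 0.08 for SCW11, with DSE4 at 0.68 ± 0.10. DSE3 (0.00) and AMN1 (0.11) did not pass, but their group means differed by set. DSE3 read 58.2 against 47.1 CPM in DASGIP tagged, 31.8 against 28.8 CPM in MC tagged and 34.8 against 47.8 CPM in MC untagged. AMN1 read 161 against 123 CPM in DASGIP tagged, 75.0 against 74.9 CPM in MC tagged and 85.2 against 89.8 CPM in MC untagged. Under Et-lim against Glu-lim the rises were smaller, from 0.23 for AMN1 to 0.48 for DSE4. DSE2 (0.13, adjusted p = 0.0983) and DSE3 (0.06) did not pass there. DSE2 passed when DASGIP tagged Et-lim replicate 1 was left out (0.0462), and likewise without Et-lim replicate 2 of the MC untagged set (0.0482). With no scaling factor 2 of 9 were called higher under Et-lim (10.9% of all genes), with the median of all genes at -0.20, and 9 of 9 under OxGlu-lim (63.0%), with the median at 0.29.

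Between N-lim and OxGlu-lim 6 members changed (71.4% of all genes), with DSE1 (0.58 ± 0.08), DSE2 (0.27 ± 0.07) and CTS1 (0.17 ± 0.07) higher under N-lim and DSE4 (-0.59 ± 0.10), EGT2 (-0.21 ± 0.08) and AMN1 (-0.18 ± 0.07) lower. Without DASGIP tagged N-lim replicate 1 neither CTS1 nor AMN1 was called (adjusted p = 0.0606 and 0.0626). CTS1 was also lost without MC tagged N-lim replicate 1 or OxGlu-lim replicate 1 of either tagged set or MC tagged OxGlu-lim replicate 3 (0.0597 to 0.106). Without MC tagged N-lim replicate 3 AMN1 was lost (0.0707) and SCW11 was called (0.0296). With library totals and no scaling factor 5 members were higher (47.1% of all genes) and 1 lower. EGT2 (-0.06, adjusted p = 0.493) and AMN1 (-0.03, 0.701) then lost their calls, SCW11 (0.28, 0.00143) and DSE3 (0.17, 0.0360) were called higher, and DSE4 (-0.44) stayed lower. Et-lim against OxGlu-lim gave 6 lower members (36.1% of all genes), led by DSE2 (-1.16 ± 0.07) and SFG1 (-1.11 ± 0.11). With no scaling factor all 9 were called lower there, as were 76.7% of all genes. DSE4 at -0.20 ± 0.10 was not called (adjusted p = 0.0690). It passed without replicate 1 of DASGIP tagged Et-lim (0.0399), of DASGIP tagged OxGlu-lim (0.0492) or of MC untagged Et-lim (0.0348).

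N-lim against Et-lim gave 5 higher members (37.4% of all genes), DSE2, DSE1, SFG1, SCW11 and CTS1, by 1.43 to 0.66. DSE4 (-0.39 ± 0.10) and AMN1 (-0.30 ± 0.07) were lower there (36.7%), but both turned higher, at 0.25 and 0.34, with library totals and no scaling factor, where all 9 members and 78.2% of all genes were called higher. EGT2 (0.13, adjusted p = 0.135) was called without DASGIP tagged Et-lim replicate 1 (0.0445) or MC tagged N-lim replicate 3 (0.00587).

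The share of the variance of log2 CPM held by limitation, set, their combination and replicates differed among members. Limitation held 74.0% for DSE2 and 62.3% for DSE1, but 7.63% for AMN1 and 0.672% for DSE3. Set held 77.8% for AMN1 and 73.8% for DSE3, and 18.6% for DSE2. SFG1 had the largest share in the combination, at 18.0%. The medians over the 9 members were 46.6% for limitation and 38.1% for set, where the medians over all genes tested were 57.7% and 5.46%.

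**Figure D4:**
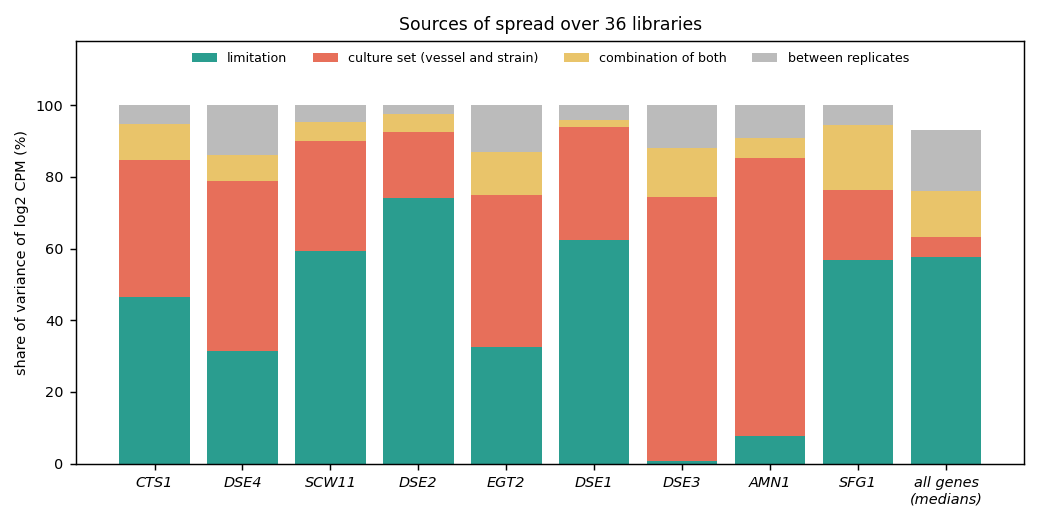
Share of the variance of log2 CPM over 36 libraries (vertical axis, %) by source (colour) for each member, with the medians over all genes tested in the last bar, which need not sum to 100. AMN1 and DSE3 have most of their variance between culture sets (77.8% and 73.8%), and DSE2 between limitations (74.0%).

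Across the 12 group means the profiles of the members were alike in part. The median Pearson correlation over their 36 pairs was 0.71, where that over all pairs of genes was -0.00. The closest pairs were SCW11 and CTS1 (0.98) and DSE2 and SCW11 (0.97), and the least alike DSE2 and AMN1 (0.28). All points share their libraries and scaling. When each member was set against the mean of the other 8, SCW11 and CTS1 correlated at 0.97, DSE1 at 0.90, EGT2 at 0.89, DSE2 at 0.88, SFG1 at 0.84, DSE4 at 0.65, DSE3 at 0.62 and AMN1 at 0.55. SCW11 and CTS1 came first by that measure among 6604 genes, and AMN1 held place 779.

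**Figure D5:**
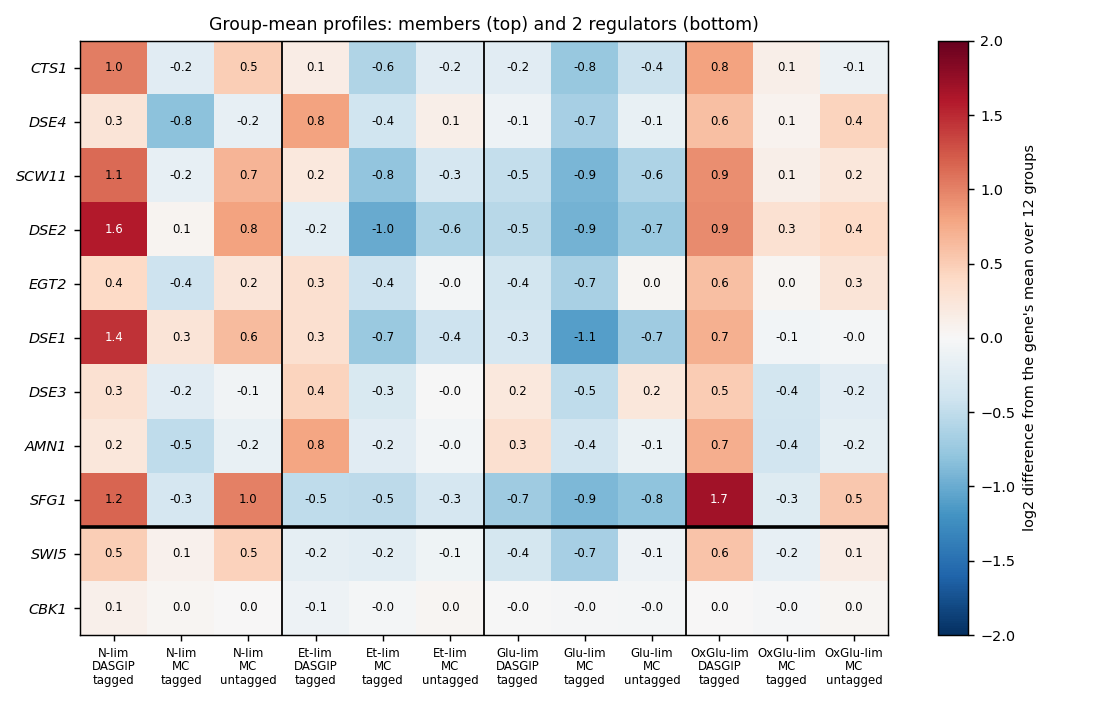
Group means of log2 CPM for the 9 members, and log2 of the group mean CPM, without a prior count, for the regulators SWI5 and CBK1 (rows). Values are differences from each gene's mean over the 12 groups (colour and printed value), by limitation and culture set (columns). DASGIP tagged N-lim and OxGlu-lim columns are above 0 for all members, MC tagged Glu-lim is below 0 for all members, and CBK1 lies near 0 in all columns.

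Within groups the members also moved together in part between replicates. In MC tagged N-lim replicate 3 all 9 lay below their group means, by 0.34 on the log2 scale on average, and in replicate 1 of that group all 9 lay above, by 0.26. The mitochondrially encoded share was 15.0% in replicate 3 and 10.1% in replicate 1. All 9 lay above their group means in MC tagged Glu-lim replicate 1 (0.18), MC untagged Et-lim replicate 1 (0.21) and MC untagged Glu-lim replicate 3 (0.23). Each of these libraries had the highest mitochondrially encoded share of its group, at 38.6%, 46.6% and 34.6%, opposite to MC tagged N-lim. The part of this share was not tested. The median correlation of the members' deviations from group means over the 36 libraries was 0.60 per pair, against 0.00 for all pairs of genes. Single pairs ran from -0.01 for EGT2 and SFG1 to 0.83 for DSE1 and CTS1.

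The genes whose 12-group profile was most like the members' mean were the small reading frames YLR286W-A (r = 0.97) and YLR285C-A (0.96), then PMT4 (0.93), BUD9 (0.91), APQ13 (0.91), ADE12 (0.90), UBC7 (0.90), IQG1 (0.89), FAT1 (0.89) and PEP1 (0.89). By its systematic name YLR286W-A neighbours CTS1 (YLR286C) on the other strand, and its counts were 8.52% to 11.6% of those of CTS1. YOR263C, a neighbour of DSE3 (YOR264W), had counts of 28.5% to 42.2% of those of DSE3. Whether counting used strand is not given in the sources used here, so reads of such neighbours may be shared. Without the DASGIP tagged set 2 of these 10 genes stayed among the 10 most alike.

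Of the regulators of mitotic exit and of the RAM network, SWI5 changed by -0.37 ± 0.06 in the mean vessel difference (adjusted p = 1.04e-05). TAO3, a scaffold of the RAM network, changed by -0.09 ± 0.03 (adjusted p = 0.0164). Its mean went from 341 CPM in DASGIP tagged to 275 CPM in MC tagged under Et-lim, and from 234 to 200 CPM under Glu-lim. It was 321 and 319 CPM under N-lim, and higher in MC tagged under OxGlu-lim, at 240 and 270 CPM. The kinase genes CBK1 (-0.02) and KIC1 (-0.01), the Cbk1 partner MOB2 (-0.01), the network proteins SOG2 (-0.05) and HYM1 (-0.13), and SSD1 (-0.03), which encodes an RNA-binding target of Cbk1, did not pass. SWI5 read 87.9 ± 1.82 CPM (SD, n = 3) in DASGIP tagged N-lim and 67.0 ± 6.28 CPM in MC tagged N-lim, and CBK1 93.5 ± 2.78 and 89.0 ± 2.28 CPM. Under Et-lim SWI5 was nearly the same in both, at 55.15 ± 5.11 CPM in DASGIP tagged and 54.35 ± 1.97 CPM in MC tagged. Its means in these sets were 49.2 and 39.7 CPM under Glu-lim, and 93.3 and 56.0 CPM under OxGlu-lim. In the mean strain difference SWI5 (-0.34) fell and HYM1 (0.17) rose.

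Among 12 other genes expressed at the end of mitosis and in early G1, 9 fell and none rose in the mean vessel difference, with a median of -0.27. ASH1, the daughter-specific repressor of mating-type switching, changed by -0.49 ± 0.06, and BUD9, a bud site marker, by -0.38 ± 0.06. In this mean, further lists of cycle stages, with early G1 among them, had medians nearer to 0 than that of the members. Of 11 genes of G2/M 8 fell (median -0.19), of 14 of G1/S 7 fell (-0.22), and of 9 of early G1 5 fell (-0.15), with none rising. With upper-quartile factors these counts were 8, 5 and 4, and with no scaling factor 11, 12 and 5. Over all genes the lower share of calls also went down with upper-quartile factors and up with no scaling factor. Counts under these factors, here and below, were therefore not read as traits of the lists. The genes with the lowest p in these 3 lists were BUD4 (-0.31) and BUD3 (-0.19), CDC9 (-0.25) and the cyclin gene CLN1 (-0.48), and MCM2 (-0.16) and MCM6 (-0.17). Within Glu-lim 10 of 14 G1/S genes fell (11.9% of all genes), with a median of -0.51, beside -0.53 for the members. No G1/S gene was called in the vessel difference under N-lim, Et-lim or OxGlu-lim. In the mean vessel difference 9 of 13 genes of septins and cytokinesis fell (median -0.12), led by IQG1 (-0.28) and the myosin gene MYO1 (-0.25). With upper-quartile factors 6 of the 13 fell, and with no scaling factor 9. Of 11 of the mitotic exit network 4 fell and 2 rose (-0.06), with LTE1 (-0.26) and CDC5 (-0.25) among those that fell. The part of cell cycle stage in the members' difference was not tested.

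Genes that build the septum and wall were mixed. Of 12 for chitin synthesis 7 fell and 1 rose (median -0.11), with the chitin synthase genes CHS2 (-0.33 ± 0.06) and CHS3 (-0.25 ± 0.04) among those that fell. With upper-quartile factors 5 fell and 1 rose, and with no scaling factor 9 fell and none rose. Of 13 other wall glucanases and SUN family genes 4 fell and 1 rose (-0.03, and 0.00 with upper-quartile factors). The one that rose was NCA3 (0.97 ± 0.11, adjusted p = 9.02e-08), and SUN4, a relative of it, fell (-0.40 ± 0.04). Of 16 genes of filamentous growth 6 fell and 4 rose (-0.07). MUC1, the flocculin gene also called FLO11, changed by -1.45 ± 0.17 and the regulator PHD1 by -0.54 ± 0.07. Of the MATa genes 3 of 7 fell (median -0.17), with BAR1 at -0.45 and STE6 at -0.31. Of the MATalpha genes 1 of 4 rose (0.22), STE3 (0.29), with SAG1 at 0.11 not called. Of the meiosis genes 1 of 10 fell and 2 rose (0.09), with SPS4 at -0.97 and REC8 at 0.33. Each of these counts for the mean vessel difference with TMM factors stands beside 17.4% of all genes lower and 17.2% higher. These shares do not hold for the counts with upper-quartile factors or no scaling factor.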

How the data were processed

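The RNA was extracted with a column kit, depleted of ribosomal RNA and made into strand-marked libraries, per the labels' protocols. The authors deposited 3 tables of raw read counts per gene, 1 for each culture set, per the file headers. Bowtie2, SAMtools, bedtools and genome build R64 are named in the submitters' processing notes. Versions, how reads were assigned to genes, and whether strand was used are not given in these sources. The analysis used 7122 gene lines per set, 4 lines were not analysed here, and 60 value columns with no matching sample were not used.

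The deposited counts were fitted with edgeR 4.0.16 in R 4.3.3 (TMM factors, genes with low counts removed by filterByExpr, 1 model of 12 groups with 24 residual degrees of freedom, quasi-likelihood F test, Benjamini-Hochberg adjustment over 6612 genes, threshold 0.05). All 9 members passed the filter. Every adjusted p is from this fit unless another tool, another setting or a library left out is named. Those values come from separate fits. A standard error is the absolute log2 fold change divided by the square root of F. The code was tested on simulated data with 200 changed genes. Counting error covers counting only, and no pair of replicates held the same counts.

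The members and gene lists were chosen with earlier results of these data known. Genes outside the members were named by rule: the regulators in the list of the RAM network and Swi5 (1 of them is not reported here, nor is that list's count), the 10 with the profile most like the members' mean, and at most 2 of each other list with the smallest p in the mean vessel difference. Profiles used log2 CPM with a prior count of 2. Alternatives were other scaling factors, no scaling factor, no filter or a minimum of 5 CPM in 3 libraries, thinning to equal depth, nuclear reading frames only, only the libraries compared, DESeq2 1.42.0, a replicate block and leaving out each library. The labels give no batch, date or lane, so a difference between sets cannot be told apart from a batch that ran with a set. Replicate numbers were checked for pairing: for the vessel comparison 3 of 12 same-numbered pairs had deviations that correlated above 0.1, so the numbers were not taken to pair the cultures.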

Additional observations from a re-analysis of the deposited data

Results flagged for a closer look

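The vessel difference varied with the limitation for 4 members, as for 24.2% of all genes, by the edgeR F test across the 4 limitations with Benjamini-Hochberg adjustment. The adjusted p was 0.0001061 for DSE2, 0.009331 for SCW11, 0.01108 for CTS1 and 7.792e-06 for SFG1. SFG1 differed by -1.91 under OxGlu-lim and -0.07 under Et-lim, and DSE2 by -1.54 under N-lim and -0.40 under Glu-lim. CTS1 and SCW11 also had their lowest vessel differences under N-lim.

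The strain difference varied with the limitation for 5 members, as for 47.9% of all genes. The adjusted p was 0.01058 for DSE2, 0.01043 for DSE3, 0.01482 for SCW11, 0.0006517 for CTS1 and 0.00129 for SFG1. CTS1 differed by -0.69 under N-lim and 0.24 under OxGlu-lim. DSE3 differed by -0.73 under Glu-lim and -0.15 under N-lim. The comparisons of vessels and strains share the MC tagged libraries. No group had more than 3 libraries, so single libraries were not tested for standing apart from their group.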

How the results depend on the processing

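Of 4770 values of single members under an alternative, 4566 kept their direction and side of the threshold. The called values that turned were DSE4 (0.25) and AMN1 (0.34) for N-lim minus Et-lim without a scaling factor, where the median of all genes was 0.64. Without a factor, values not called also turned to called rises, from -0.07 to 0.36 for AMN1 and N-lim minus Glu-lim, and for DSE3 from -0.04 to 0.60 for N-lim minus Et-lim and from -0.00 to 0.28 for OxGlu-lim minus Glu-lim. Others turned to called falls, DSE3 from 0.02 to -0.31 for vessel and strain under Glu-lim, and DSE3 (0.07 to -0.43) and AMN1 (0.12 to -0.37) for Et-lim minus OxGlu-lim. All 9 members fell in the mean vessel difference under each alternative run. With only the libraries compared, the spread came from those libraries. The genes called for vessels were 293 under N-lim (1204 in the full model), 448 under Et-lim (790), 407 under OxGlu-lim (1183) and 1056 across limitations (1602). For strains they were 1219 under N-lim (2140), 35 under Et-lim (21) and 867 under OxGlu-lim (1601), and 489 for vessel and strain under Et-lim (1197). The counts rose to 1867 (1383), 2092 (1474) and 1403 (1008) for vessels, strains and both under Glu-lim, and to 2565 (2071) for both under N-lim. Members called were then 4, 1 and 2 for strains under nitrogen, ethanol and oxygen-glucose limitation, and 4 for vessel and strain under Et-lim. In the vessel difference DSE4 (adjusted p = 0.0862), EGT2 (0.0694) and AMN1 (0.0818) were lost under N-lim and DSE4 (0.0514) under OxGlu-lim. Without a scaling factor, genes called were 502 for vessels under Et-lim, 3076 (1198) and 1693 for strains in the mean and under Et-lim, and 4649 (2616), 2930 and 3559 (1008) for vessel and strain in the mean, under Et-lim and under Glu-lim. Members called were 2 for strains under Glu-lim, also with upper-quartile factors, a count given without its share of all genes and not read further. Without a factor they were 6 for vessel and strain under Glu-lim and 2 for Et-lim minus Glu-lim, with the shares of all genes given above. Lower calls made up 50.3% of calls in the mean vessel difference, 37.6% with upper-quartile factors and 79.5% without a factor, and 53.8%, 32.2% and 4.29% in the mean strain difference. For vessel and strain they made up 47.9% and, without a factor, 94.0%. For strains under Et-lim, nuclear reading frames gave 1 gene and DESeq2 94. ACCAGC gave 1 member in the 300-base window, and CCAGC in 600 bases 8. Of the 10 most alike genes, 2 stayed without the DASGIP tagged libraries, 6 without MC tagged and 5 without MC untagged. Leaving out 1 library, genes called for vessels ranged from 471 to 997 under Et-lim, 828 to 1228 under Glu-lim and 758 to 1330 under OxGlu-lim, with 4 to 7 members under Glu-lim. For strains they ranged from 12 to 75 under Et-lim with 0 to 1 member, 855 to 1154 under Glu-lim with 2 to 6, and 912 to 1916 under OxGlu-lim. For vessel and strain they ranged from 720 to 1268 under Et-lim and 663 to 790 under Glu-lim, with 0 to 2 members under Glu-lim. A replicate block gave 2180 genes and 9 members for the mean vessel difference, 978 and 9 for strains, and 2454 and 8 for vessel and strain. Under the block DSE1 was called (adjusted p = 0.0439) and AMN1 lost (0.0542) for strains under N-lim, CTS1 lost (0.0700) under Glu-lim, and DSE4 lost (0.0572) for vessel and strain under N-lim. Except where stated, the cause of these changes was not tested.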
